A study of Mus musculus with 12 samples.

Results

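Malat1, Neat1 and Gm26917 are 3 noncoding genes, the rows of these symbols among the 34745 genes deposited for bone marrow of male ICR mice. They were selected on their shares of the counts in the 4 groups, so their levels and fold changes are descriptions, and no test is given for them. RNA of all cells flushed from the femur was sequenced in 12 libraries, 1 per mouse and 3 per group, after ribosomal RNA (rRNA) had been removed with Ribo-Zero beads. The normal group received saline only. The model group was given cyclophosphamide, a DNA alkylator toxic to dividing marrow cells, at 80 mg/kg per day on days 5 to 7, with saline by mouth. The QJSB group received the same cyclophosphamide with 3 g/kg per day of Qi Jing Sheng Bai granule, a herbal preparation, for 1 week by mouth. The leucogen group received the same cyclophosphamide with leucogen, a medicine against low leukocyte counts, at 20 mg/kg per day for 1 week by mouth. The ages of the mice are not given in the sources used here, and ICR is an outbred stock, so the 3 mice of a group were not genetically identical. Only the model group is named alike in the sample titles and in the column headings of the table, and the labels do not link the other headings to a group. Columns headed Blank were read as normal and columns headed Positive as leucogen, from what these words mean. Columns headed Stilbene were given to QJSB by elimination, as the remaining group, so every QJSB value rests on this reading.

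Malat1 is a long noncoding RNA that stays in the nucleus and gathers at nuclear speckles, where splicing factors are stored. Neat1 is transcribed next to it, and its long form is the scaffold of paraspeckles, nuclear bodies built on this RNA and the proteins bound to it. The long forms of both RNAs end without a poly(A) tail. RNase P cuts the transcript, and a triple helix of U-rich and A-rich stretches protects the end. Gm26917 is a predicted long noncoding gene beside a copy of ribosomal RNA sequence, and gene models at this locus are known to collect reads of rRNA in sequencing libraries. Bone marrow is a mixture of maturing blood cells, and in bulk RNA fewer cells of a type and less RNA per cell cannot be told apart.

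All 3 genes are annotated as lincRNA in GENCODE M21 (GRCm38), with the same coordinates as in the deposited table. Malat1 (ENSMUSG00000092341) lies on the minus strand at chr19:5795690-5802672, with a longest transcript of 6983 bases and a GC content of 42.5%. Neat1 (ENSMUSG00000092274) lies on the same strand at chr19:5824708-5845478, with a longest transcript of 20771 bases and a GC content of 47.3%. The genes are separated by 22035 bases. Gm26917 (ENSMUSG00000097971) lies on the plus strand at chr17:39843013-39846341, with a longest transcript of 3329 bases and a GC content of 69.1%, the highest of the 3.

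The ends of the transcripts show what Malat1 and Neat1 share and Gm26917 does not. The following stretches are printed 5′ to 3′ in the sense of the transcript, from the GENCODE M21 transcripts, with capitals for the U-rich stretch TTTTGCTTTT and the A-rich stretch AAAAGCAAAA. The A-rich letters are the last 10 bases of the long Neat1 transcript, and the U-rich letters are their reverse complement.
Neat1, last bases, chr19:5824708-5824827, minus strand: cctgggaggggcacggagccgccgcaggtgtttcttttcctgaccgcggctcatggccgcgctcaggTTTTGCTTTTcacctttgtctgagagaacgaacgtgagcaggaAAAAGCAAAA
Malat1, before the annotated end, chr19:5795982-5796101, minus strand: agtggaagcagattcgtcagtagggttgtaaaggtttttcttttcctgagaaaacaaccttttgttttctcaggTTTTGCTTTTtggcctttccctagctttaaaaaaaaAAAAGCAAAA
Gm26917, last bases, chr17:39846222-39846341, plus strand: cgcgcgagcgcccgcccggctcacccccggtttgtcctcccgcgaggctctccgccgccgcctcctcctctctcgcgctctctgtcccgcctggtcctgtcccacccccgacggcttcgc

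Each of the 2 stretches occurred 1 time in the long transcript of Malat1, at bases 6646 and 6682, and 1 time in that of Neat1, at bases 20719 and 20762. Gm26917 held neither, which says only that these letters are not in its transcript. Among 127626 transcripts of at least 350 bases, 4 held both stretches in the last 350 bases of their own strand (0.00313%). These were Malat1, Neat1 and 2 transcripts of Ankrd31. The A-rich letters were taken from the end of Neat1, so Neat1 held that stretch by construction, and the share is a description only.

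The neighbour of Gm26917 carries rRNA sequence. An rRNA model of GENCODE, CT010467.1, begins 11 bases after the end of Gm26917, on the opposite strand, and the noncoding gene Gm42418 (ENSMUSG00000098178, chr17:39846958-39848788, plus strand) lies across it. Gm42418 has a run of 1244 bases identical to the reverse complement of that model. These strands are those of the annotation, and whether Gm42418 has the sense of rRNA or the opposite one was not examined. The values of Gm42418 are set beside those of Gm26917 below. Its first bases are shown here, in capitals because all of them are part of the shared run.
Gm42418, first bases, chr17:39846958-39847017, plus strand: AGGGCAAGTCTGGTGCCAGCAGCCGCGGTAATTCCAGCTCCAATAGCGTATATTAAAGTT
Gm26917, Malat1 and Neat1 share no run of at least 20 bases with the rRNA model on either strand. That model has 1849 bases, and rRNA sequence outside it was not searched. The search therefore does not show that Gm26917 is free of rRNA sequence. How reads that map to several places were counted is not given in the sources used here. The part of rRNA reads in the counts of Gm26917 was therefore not tested.

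Gm26917 and Malat1 were the 2 most abundant genes of the table by their mean share of the counts over the 12 libraries, at 2.92% and 1.29%. The next were S100a8, an abundant protein of neutrophils, at 1.11% and mt-Co1 at 0.925%. In single libraries Gm26917 was first in 8 of 12 and never below rank 4, and Malat1 lay between rank 1 and rank 5. Neat1 was much less abundant, between rank 50 and rank 939. Together the 3 genes held 3.82% ± 0.291 of the counts in normal, 5.14% ± 0.910 in model, 4.996% ± 0.223 in QJSB and 3.14% ± 0.374 in leucogen (SD, n = 3 in each group).

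Per length the order was the same. In CPM (counts in 1e+06 of the library) per kb of the longest transcript, Malat1 reached 2659.1 ± 63.9 in normal marrow and Neat1 51.1 ± 6.54, while Gm26917 reached 5588.3 ± 831.6 (SD, n = 3). Malat1 thus had 47.0 to 58.5 times the level of Neat1 per kb in the 3 normal libraries, and Gm26917 had 1.76 to 2.40 times that of Malat1. In model the level per kb was 12428.2 ± 3105.6 for Gm26917, 1373.4 ± 173.6 for Malat1 (SD, n = 3), and for Neat1 it ran from 12.9 to 28.6.

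Malat1 held 1.82%, 1.84% and 1.91% of the counts in the 3 normal libraries, in the order of their replicate numbers. In the model libraries it held 0.913%, 1.10% and 0.868%. All normal libraries lay above all model libraries. The QJSB libraries gave 0.757%, 0.732% and 0.894%, of which the highest lay within the range of the model libraries. The leucogen libraries gave 1.72%, 1.39% and 1.54%, above every model and QJSB library and below every normal library. The order of the means was normal (1.86% ± 0.0446), leucogen (1.55% ± 0.169), model (0.959% ± 0.121) and QJSB (0.794% ± 0.0870; SD, n = 3), and in this order only model and QJSB overlapped.

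Neat1 varied more between mice of a group. The normal libraries held 0.104%, 0.0938% and 0.121% of their counts in Neat1, and the model libraries 0.0594%, 0.0447% and 0.0268%, again without overlap. The QJSB libraries held 0.0210%, 0.0604% and 0.0668%. Replicate 1 of QJSB was the lowest of all 12 libraries, and replicates 2 and 3 lay above every model library. The leucogen libraries held 0.109%, 0.0436% and 0.0507%, so that replicate 1 lay within the normal range and the others within the model range. The means were 0.106% ± 0.0136 in normal, 0.0678% ± 0.0359 in leucogen, 0.0494% ± 0.0248 in QJSB and 0.0436% ± 0.0164 in model (SD, n = 3), and the last 3 overlapped, as did leucogen and normal. The coefficient of variation within a group was 12.8% in normal, 37.5% in model, 50.2% in QJSB and 53.0% in leucogen, against 2.40% to 12.6% for Malat1.

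Gm26917 had the opposite pattern. It held 2.08%, 1.55% and 1.95% of the counts in the normal libraries and 4.57%, 2.96% and 4.88% in the model libraries. Model replicate 2 was the lowest of its group but still above every normal library. The QJSB libraries held 4.48%, 4.07% and 3.91%, within the range of the model libraries. The leucogen libraries held 1.70%, 1.65% and 1.21%, below every model and QJSB library, and 2 of them lay within the normal range. The means were 4.15% ± 0.292 in QJSB, 4.14% ± 1.03 in model, 1.86% ± 0.277 in normal and 1.52% ± 0.274 in leucogen (SD, n = 3).

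**Figure D1:**
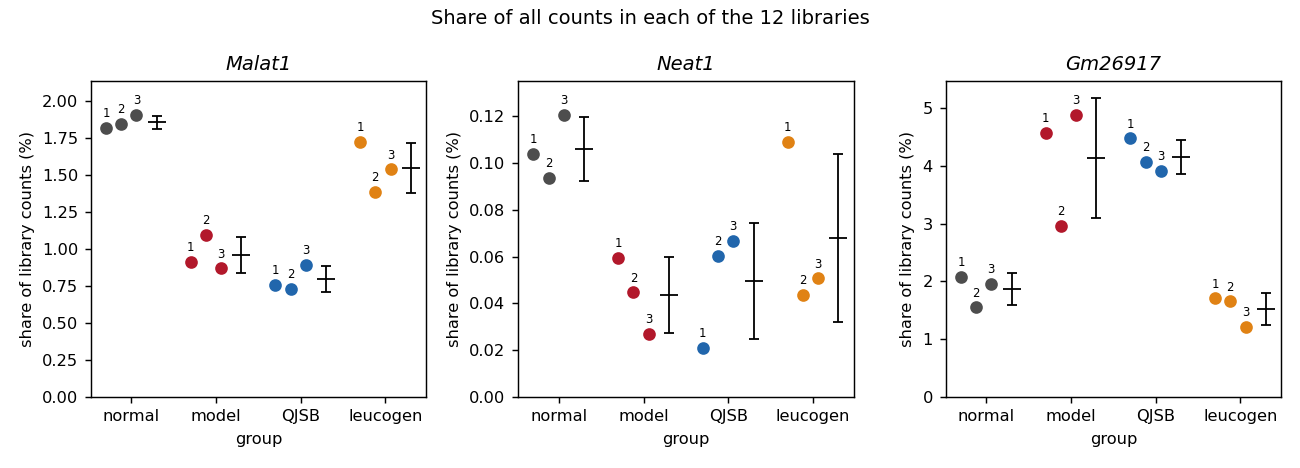
Share of all counts of a library (%, vertical axis) held by Malat1, Neat1 and Gm26917 in the 4 groups (horizontal axis). Points are single libraries with their replicate numbers, and the black bars beside them give the mean ± SD of 3. Malat1 is between 1.82% and 1.91% in normal and between 0.868% and 1.10% in model, Gm26917 is between 1.55% and 2.08% in normal and between 2.96% and 4.88% in model, and the leucogen points of Neat1 run from 0.0436% to 0.109%.

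Counting error was small beside this spread. Library totals ran from 11172547 to 18545198 counts, and the counts of a library ran from 129788 to 279492 for Malat1, from 3603 to 17685 for Neat1 and from 134632 to 826437 for Gm26917. The Wilson 95% interval of Neat1 in QJSB replicate 1, the lowest share, ran from 0.0203% to 0.0217%, and that of Gm26917 in model replicate 3, the highest, from 4.87% to 4.89%. Such intervals cover counting error only, since the reads carried no molecular identifiers. Because Gm26917 takes several percent of a library, the shares of the others were also taken without it and the gene models within 10 kb of it. Malat1 then held 1.90% ± 0.0463 in normal, 1.00% ± 0.114 in model, 0.832% ± 0.0895 in QJSB and 1.57% ± 0.173 in leucogen (SD, n = 3), in the same order.

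The composition of the marrow moved with the groups. The summed level of 15 erythroid markers was 18965.4 to 23582 CPM (here scaled by TMM) in normal and 199.7 to 1933.7 in the other groups, and that of 15 B cell markers was 2266.5 to 2417.2 in normal and 13.6 to 205.1 in the others. The sum of 8 promyelocyte markers was 1035.9 to 1360.4 in normal, 7461.4 to 10245.7 in model, 9084.9 to 9656.8 in QJSB and 4829.6 to 5736.7 in leucogen. Of these 8, 7 were called higher and 0 lower in model against normal by edgeR, beside 16.1% and 19.0% of all genes. Calls went both ways in leucogen against model, with 1 higher and 5 lower, beside 11.6% and 11.5% of all genes. They also did in QJSB against leucogen, with 4 higher and 2 lower, beside 12.9% and 11.7%. For 15 markers of late neutrophils the sum was 23111.9 to 25787.9 in normal, 8147.1 to 25804.1 in model, 9625.6 to 44783.3 in QJSB and 55736.3 to 71170.6 in leucogen. In leucogen its largest parts were S100a8 and S100a9, at 24985.8 and 13762 CPM against 7258.3 and 4153 in normal (means, n = 3). Camp was at 1198.4 against 722.1, but Mmp8 was at 1273.8 against 1308.2 and Retnlg at 958 against 1227.2. Set against normal, the sum in leucogen therefore does not show that the 15 markers moved as a set. Set against model, all 15 were at a higher level in leucogen, with log2 fold changes from 0.968 to 3.605. In model against normal 5 of the 15 were called lower and 0 higher in edgeR, beside 19.0% and 16.1% of all genes. In leucogen against model 10 were called higher and 0 lower, beside 11.6% and 11.5% of all genes. QJSB replicate 1, the lowest library for Neat1, had the lowest neutrophil sum of its group, and leucogen replicate 1, the highest of its group for Neat1, had the lowest neutrophil sum of leucogen. The sum of 9 eosinophil markers was 1581.2 to 1949.2 in normal and 73.1 to 283.8 in the others, and that of 12 markers of T and NK cells was 74.5 to 103.3 in normal and 13.2 to 41.7 in the others. For 13 markers of macrophages and monocytes it was 1253.4 to 1398.9 in normal, 2031.0 to 3226.2 in model, 1649.1 to 2258.9 in QJSB and 1542.2 to 1924.6 in leucogen. Most of this sum in model was F13a1, at 1634.5 ± 468.4 CPM against 505.5 ± 31.1 in normal (SD, n = 3). The markers did not move together. In model against normal 4 of the 13 rose and 6 fell (over 1.5 times, adjusted p under 0.05 in edgeR), beside 16.1% and 19.0% of all genes. Their median log2 fold change was -0.58. The sum of 9 megakaryocyte markers overlapped between all groups. Markers of stroma and endothelium, 10 in number, stood apart in model replicate 1 (828.9) and QJSB replicate 1 (991.1), against 262.2 to 326.3 in the other libraries of these groups, 441.1 to 508.6 in normal and 234.3 to 275.3 in leucogen. All markers of these lists had counts in every group except 1 B cell marker in QJSB, 2 B cell markers in leucogen and 1 marker of T and NK cells in leucogen. Mitochondrially encoded genes took 1.48% to 1.67% of the counts in normal and 1.58% to 2.73% in the others. The part of cell composition in the values of the 3 genes was not tested.

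Model against normal asked what cyclophosphamide did to the marrow. Malat1 and Neat1 were lower in model and Gm26917 was higher. Malat1 had 8965.6 ± 1186.6 CPM in model and 18916.1 ± 309.7 in normal (SD, n = 3), a log2 fold change of -1.07 (SE 0.17) in the edgeR fit. Neat1 had a log2 fold change of -1.42 (SE 0.24), and Gm26917 of 1.03 (SE 0.24). The groups did not overlap for any of the 3 genes, as was so for 55.5% of the 14752 genes tested. Since these values chose the genes, nothing is read from that count. The log2 fold change of Malat1 was exceeded by 86.0% of all genes tested and that of Neat1 by 89.4%, while 8.46% had a higher value than Gm26917.

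In QJSB against model, which asked about the granule, each of the 3 genes overlapped between the groups. The log2 fold changes were -0.18 (SE 0.23) for Malat1, 0.32 (SE 0.47) for Neat1 and 0.09 (SE 0.29) for Gm26917. The groups did not overlap for 9.80% of the 14486 genes tested. Neat1 had the widest error, and its log2 fold change was 0.71 without QJSB replicate 1 and lay between 0.04 and 0.71 over the 6 fits that each left out 1 library.

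In leucogen against model, which asked about the reference drug, Malat1 was higher in leucogen with a log2 fold change of 0.86 (SE 0.22), and Gm26917 was lower with -1.28 (SE 0.29). Neither overlapped between the groups, as was so for 46.0% of the 14184 genes tested. Neat1 had a log2 fold change of 0.80 (SE 0.38) and overlapped. Without leucogen replicate 1 its value was 0.34.

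QJSB against leucogen set the 2 drugs side by side after the same cyclophosphamide, at different doses. Malat1 was lower in QJSB, with a log2 fold change of -1.04 (SE 0.21), and Gm26917 was higher, with 1.37 (SE 0.24). Both had groups without overlap, as had 48.8% of the 14266 genes tested. Neat1 overlapped, with a log2 fold change of -0.49 (SE 0.54), which was -0.01 without leucogen replicate 1. The model libraries enter 3 of the 4 comparisons and the QJSB and leucogen libraries 2 each, so the values of different comparisons are not independent.

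**Figure D2:**
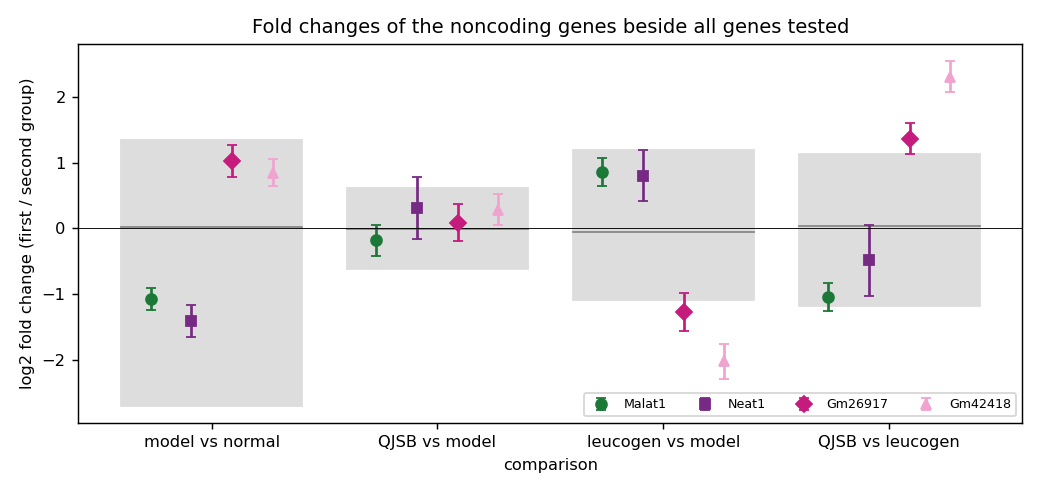
Log2 fold change (vertical axis, first group over second) of Malat1, Neat1, Gm26917 and its neighbour Gm42418 in the 4 comparisons (horizontal axis), with bars for the standard error of the edgeR fit. Grey boxes span the 5th to the 95th percentile of all genes tested and the grey line is their median. Malat1 is at -1.07 in model vs normal and 0.86 in leucogen vs model, Gm26917 is at 1.03 and -1.28, and all 3 genes are within 0.32 of 0 in QJSB vs model.

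Gm42418, which the choice of genes did not use, was tested with all other genes. It held 0.210%, 0.173% and 0.220% of the counts in the normal libraries and 0.464%, 0.281% and 0.440% in the model libraries. It held 0.473%, 0.437% and 0.449% in QJSB and 0.119%, 0.0741% and 0.0664% in leucogen. Gm42418 was thus lowest in leucogen, below normal as well, and highest in model and QJSB. It rose in model against normal (log2 fold change 0.85, SE 0.21, adjusted p = 0.0116, quasi-likelihood test of edgeR, Benjamini-Hochberg adjustment), a call that was lost without normal replicate 2 (log2 fold change 0.75). In leucogen against model it fell (log2 fold change -2.03, SE 0.27, adjusted p = 0.00242 in edgeR), and it was higher in QJSB than in leucogen (2.31, SE 0.23, adjusted p = 0.00285 in edgeR). QJSB against model gave a log2 fold change of 0.29 (SE 0.24, adjusted p = 0.799 in edgeR).

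The ratio of Gm26917 to Gm42418 was higher in leucogen than in the other groups. There were 9.88, 8.96 and 8.86 counts of Gm26917 for each count of Gm42418 in the normal libraries, 9.86, 10.5 and 11.1 in the model libraries and 9.47, 9.33 and 8.71 in the QJSB libraries. The leucogen libraries had 14.3, 22.3 and 18.2, above all others, and the QJSB libraries lay below the model libraries. Gm26917 had 0.840 to 1.14 counts per count of Malat1 in normal and 0.784 to 1.19 in leucogen, but 2.70 to 5.63 in model and 4.37 to 5.91 in QJSB. Malat1 had 15.8 to 19.7 counts per count of Neat1 in normal, and this ratio overlapped between all groups, with 15.4 to 32.4 in model, 12.1 to 36.0 in QJSB and 15.8 to 31.8 in leucogen. Other gene models at these loci gave almost nothing: Yam1, on the minus strand inside Gm42418, had 0 counts in the 12 libraries, and Gm37376, on the plus strand within Malat1, had 1.

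**Figure D3:**
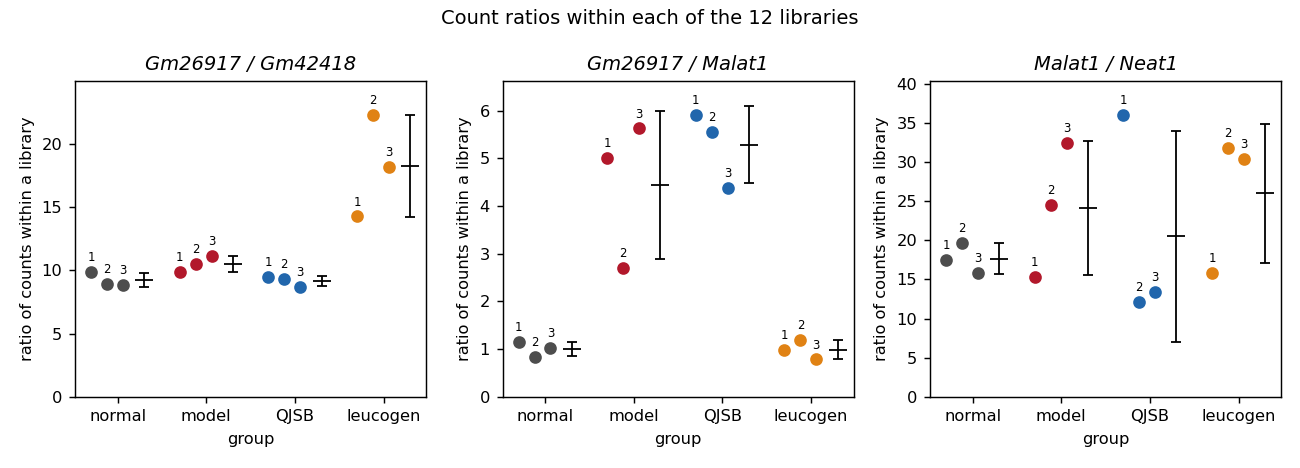
Ratio of the counts of 2 genes within each library (vertical axis) for Gm26917 over Gm42418, Gm26917 over Malat1 and Malat1 over Neat1, by group (horizontal axis). Points are libraries with their replicate numbers and black bars give the mean ± SD of 3. Gm26917 over Gm42418 is between 8.71 and 11.1 in normal, model and QJSB and between 14.3 and 22.3 in leucogen.

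Around Malat1 and Neat1, 17 other gene models of the table lie within 100 kb, of which 13 were tested in model against normal. Of these, 0 rose and 4 fell, beside 35.1% of all genes called (a change of over 1.5 times either way, with an adjusted p under 0.05), 16.1% higher and 19.0% lower. Ehbp1l1 fell from 316.2 ± 27.8 to 159.7 ± 11.03 CPM (SD, n = 3; log2 fold change -0.98, adjusted p = 0.000417 in edgeR). Gm16538 (-5.47, adjusted p = 0.000287), Cdc42ep2, a partner of the GTPase Cdc42 (-1.33, adjusted p = 0.0105), and Tigd3 (-0.92, adjusted p = 0.0122) were the others in edgeR. The call of Cdc42ep2 was lost without normal replicate 3 (-1.04), and that of Tigd3 without normal replicate 1 (-0.82). In QJSB against model 0 of 12 neighbours were called, beside 0 of all 14486 genes tested. In leucogen against model 1 of 12 was called, beside 23.1% of all genes, namely Fam89b (-0.99, adjusted p = 0.0464 in edgeR), and this call was lost in each of the 6 fits that left out a library (-1.17 to -0.86). In QJSB against leucogen 3 of 12 were higher and 0 lower, beside 12.9% and 11.7% of all genes. These were Fam89b (1.72, adjusted p = 0.00499), Sssca1 (0.72, adjusted p = 0.0173) and Map3k11, a kinase of the JNK pathway (0.59, adjusted p = 0.0238), by edgeR. The call of Sssca1 was lost without leucogen replicate 1 or 3 (0.70 and 0.64). The call of Map3k11 was lost in each fit that left out a library other than QJSB replicate 1 (0.51 to 0.65).

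**Figure D4:**
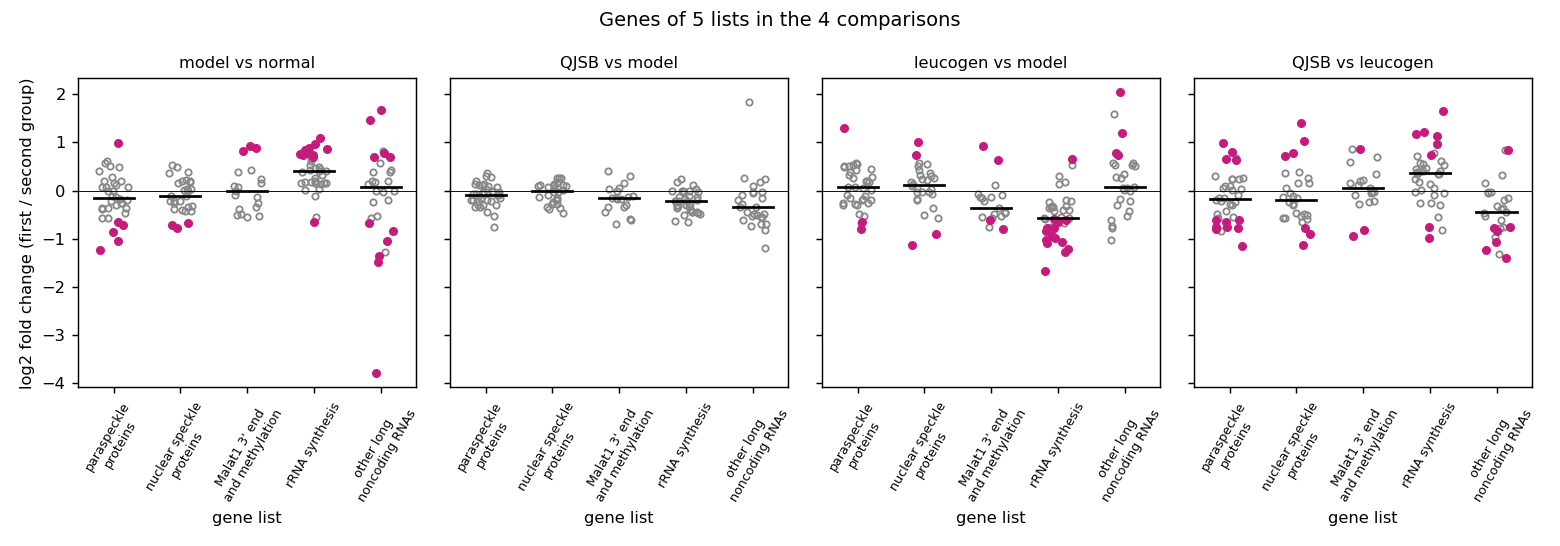
Log2 fold change (vertical axis, first group over second) of each tested gene of 5 lists (horizontal axis) in the 4 comparisons (panels). Filled points passed the call, open points did not, and black lines are medians. The genes of rRNA synthesis have a median of 0.40 in model vs normal and -0.57 in leucogen vs model, and no point is filled in QJSB vs model.

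The proteins and RNAs that work with these genes were described with 5 lists that hold 152 genes of the table. In model against normal 34 of the 147 genes tested were called, 19 higher and 15 lower, beside 35.1% of all genes, 16.1% higher and 19.0% lower. The split was 29 higher and 9 lower when libraries were scaled by their total counts. Of 36 paraspeckle proteins, 1 rose and 5 fell, with a median log2 fold change of -0.16 against 0.02 over all genes. Srsf10, a splicing regulator, fell from 428.9 ± 49.8 to 182.1 ± 19.9 CPM (SD, n = 3; -1.23, adjusted p = 0.000269 in edgeR). Smarca4, the ATPase of the BAF chromatin remodelling complex, fell by 0.87 on the log2 scale (adjusted p = 0.0039 in edgeR). Pspc1, a paraspeckle protein that binds Neat1 with its relatives Nono and Sfpq, fell by 0.72 on the log2 scale (adjusted p = 0.00376 in edgeR). Aff2 was the member that rose (0.995, adjusted p = 0.0379 in edgeR), and its call was lost without normal replicate 2 or 3 or model replicate 2 or 3 (0.82 to 0.94).

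Of 28 nuclear speckle proteins 0 rose and 3 fell, with a median of -0.11. These were the splicing kinase Clk1 (-0.77, adjusted p = 0.00697) and the SR proteins Srsf1 (-0.72, adjusted p = 0.00177) and Srsf7 (-0.67, adjusted p = 0.00489), by edgeR. The value of Srsf7 with total counts, -0.54, was short of the fold cutoff. Of 19 tested genes for the 3′ processing and adenosine methylation of Malat1, 3 rose and 0 fell, with a median of -0.01, and 5 were called without model replicate 2. Pop4 (0.89, adjusted p = 0.00995 in edgeR) and Rpp40 (0.92, adjusted p = 0.00299 in edgeR) are subunits of RNase P, which cuts the end of Malat1. Elac2, the nuclease that trims the 3′ ends of tRNA precursors, rose by 0.82 on the log2 scale (adjusted p = 0.0189 in edgeR), a call lost without normal replicate 1 or 2 or model replicate 3 (0.67 to 0.79).

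The list of rRNA transcription and processing had 10 genes that rose and 1 that fell of 36, with a median of 0.40. Nucleolin (Ncl), the abundant RNA-binding protein of the nucleolus, rose from 452.6 ± 20.2 to 748.7 ± 26.4 CPM (SD, n = 3; 0.73, adjusted p = 0.00141 in edgeR). Wdr12, a factor of large subunit assembly, rose by 0.89 on the log2 scale (adjusted p = 0.00248 in edgeR). Nucleophosmin (Npm1) rose by 0.69 (adjusted p = 0.0151 in edgeR), but not without normal replicate 3, where its value was 0.56. The gene that fell was topoisomerase Top1 (-0.66, adjusted p = 0.00198 in edgeR, or -0.54 and no call with total counts). Without normal replicate 3 the list had 7 calls in place of 11.

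Of 28 tested other long noncoding RNAs 5 rose and 6 fell, with a median of 0.07, so that calls went both ways. Firre, an X-linked RNA that stays near its gene in the nucleus, rose by 1.46 (adjusted p = 9.13e-05 in edgeR). 1700020I14Rik fell from 694.9 ± 14.3 to 388.4 ± 18.8 CPM (SD, n = 3; -0.83, adjusted p = 0.000698 in edgeR). Ftx, a noncoding gene of the X-inactivation centre, fell by 1.04 on the log2 scale (adjusted p = 0.000538 in edgeR). Without normal replicate 1 or 3 the list had 6 calls in place of 11. Of 6 short noncoding RNAs with a row, 3 were tested, and Terc, the RNA of telomerase, fell by 1.02 (adjusted p = 0.00216 in edgeR).

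In QJSB against model 0 genes were called in the 5 lists, as among all genes (percent called 0). Of the 146 list genes tested 11 had an unadjusted p under 0.05, against 4.99% of all genes, and DESeq2 called 0 of them. This number depended on single libraries, with 39 without QJSB replicate 1 and 14 without model replicate 3, but 2 without QJSB replicate 2 and 4 without QJSB replicate 3 or model replicate 1 or 2. It was 23 with the replicate number as a block and 29 with all 12 libraries in 1 fit, and 0 genes of the lists were called in any of these fits. The median log2 fold changes were -0.09 for paraspeckle proteins, -0.01 for nuclear speckle proteins, -0.16 for processing and methylation of Malat1, -0.22 for rRNA synthesis and -0.34 for other long noncoding RNAs, against -0.02 over all genes. Over all genes DESeq2 called 8 and edgeR with the replicate number as a block called 18.

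In leucogen against model 30 of the 146 list genes tested were called, 10 higher and 20 lower, beside 23.1% of all genes, 11.6% higher and 11.5% lower. With total counts the split was 6 higher and 37 lower. The genes of rRNA synthesis held most of the lower calls, with 14 that fell and 1 that rose of 36 and a median of -0.57 against -0.05 over all genes. Ncl fell from 748.7 ± 26.4 to 470.2 ± 37.1 CPM (SD, n = 3; -0.66, adjusted p = 0.00989 in edgeR) and Npm1 by 0.84 on the log2 scale (adjusted p = 0.00839 in edgeR). This list had 7 calls without leucogen replicate 1 or 3 and 9 without model replicate 1 or 3. The summed level of its 36 genes was 2253.1 to 2509.4 CPM in normal, 2961.2 to 3172.4 in model, 2117.6 to 3403.5 in QJSB and 2268.3 to 2387.4 in leucogen.

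Other lists had fewer calls in this comparison. Of 36 paraspeckle proteins 1 rose and 2 fell, of 28 nuclear speckle proteins 2 rose and 2 fell, and of 19 genes of Malat1 processing and methylation 2 rose and 2 fell. Tra2a, a splicing activator of nuclear speckles, rose from 293.9 ± 33.1 to 590.9 ± 57.0 CPM (SD, n = 3; 1.01, adjusted p = 0.00346 in edgeR), and Wtap, a subunit of the complex that methylates adenosines in Malat1 and other RNAs, rose by 0.94 (adjusted p = 0.00485 in edgeR). Cirbp, a cold-inducible RNA-binding protein, fell by 0.79 on the log2 scale (adjusted p = 0.00988 in edgeR). Of 27 other long noncoding RNAs 4 rose and 0 fell, among them Gm14005 (1.20, adjusted p = 0.00385 in edgeR). Without model replicate 2 the calls were 8 for paraspeckle proteins, 9 for nuclear speckle proteins and 8 for long noncoding RNAs. Paraspeckle proteins had 7 without leucogen replicate 2. Without leucogen replicate 3 they were 2 for nuclear speckle proteins and 1 each for Malat1 processing and for long noncoding RNAs. Malat1 processing also had 1 call without leucogen replicate 1 and 2 without leucogen replicate 2 or model replicate 1 or 3. With total counts paraspeckle proteins had 6 calls and Malat1 processing 7.

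In QJSB against leucogen 37 of the 145 list genes tested were called, 16 higher and 21 lower, beside 24.6% of all genes, 12.9% higher and 11.7% lower. Of 36 paraspeckle proteins 4 were higher and 8 lower in QJSB, and of 28 nuclear speckle proteins 4 were higher and 3 lower. Prpf8, the core protein of the spliceosome, was at 750 ± 106.4 CPM in QJSB and 281.3 ± 54.6 in leucogen (SD, n = 3; 1.39, adjusted p = 0.00304 in edgeR). Clk1 (-0.78, adjusted p = 0.00889) and Cpsf6, a cleavage factor subunit found in paraspeckles (-0.80, adjusted p = 0.00604), were lower in QJSB by edgeR. Of 19 genes of Malat1 processing and methylation 1 was higher and 2 lower, the latter being Wtap (-0.95, adjusted p = 0.00334 in edgeR) and Ythdc1, a nuclear reader of the methylated base (-0.82, adjusted p = 0.00528 in edgeR). Of 36 genes of rRNA synthesis 6 were higher and 2 lower, with a median of 0.37, and fibrillarin (Fbl), the methyltransferase of rRNA, was higher by 1.65 (adjusted p = 0.00561 in edgeR). Of 26 other long noncoding RNAs 1 was higher and 6 lower, with a median of -0.46, and Kcnq1ot1, an imprinted antisense RNA, was at 931 ± 133.2 CPM in QJSB and 1637.1 ± 123 in leucogen (SD, n = 3; -0.83, adjusted p = 0.00966 in edgeR).

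Single libraries moved several of these counts. Without leucogen replicate 3 paraspeckle proteins had 4 calls, rRNA synthesis 2 and long noncoding RNAs 4. Without leucogen replicate 1 paraspeckle proteins had 7 calls and rRNA synthesis 4. Without QJSB replicate 1 nuclear speckle proteins had 11 calls and long noncoding RNAs 12. The genes of rRNA synthesis had 5 without QJSB replicate 2 or leucogen replicate 2.

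Of 23 gene models written down as rRNA-like, 16 had a row and 3 were tested in model against normal. Apart from Gm42418 these were few: Gm10800 fell in model (-1.63, adjusted p = 0.0372 in edgeR), at 0.537 ± 0.435 CPM against 1.71 ± 0.298 in normal (SD, n = 3), a call lost without any of the normal replicates or without model replicate 2 or 3 (-2.53 to -1.31 over the fits that left out a library). Lars2, the mitochondrial leucyl-tRNA synthetase, fell in leucogen against model (-1.08, adjusted p = 0.00534 in edgeR). Among 13 mitochondrially encoded genes 1 rose and 0 fell in model against normal, beside 16.1% and 19.0% of all genes. The riser was mt-Co3 (0.67, adjusted p = 0.0178 in edgeR), and its call was lost without any of the normal replicates or without model replicate 2 (0.49 to 0.70).

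Across the 12 libraries, the genes with the pattern most like each noncoding gene were taken among 11799 genes by Pearson's r of log2 CPM, as a description without a test, since the libraries share their group differences. For Malat1 these were Ccnt2 (0.988), a cyclin of the elongation factor P-TEFb, Mkln1 (0.984), Gm37864 (0.981), Pspc1 (0.978) and Herc6 (0.977). Ccnt2 was at 275.6 ± 6.66 CPM in normal, 187.8 ± 12.3 in model, 168.6 ± 9.46 in QJSB and 268.4 ± 14.6 in leucogen (SD, n = 3). The most opposite were the lysosomal proteins Glb1 (-0.990) and Npc2 (-0.987), and the zinc transporter Slc39a1 (-0.987).

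For Gm26917 the most alike was Rps2 (0.990), a protein of the small ribosomal subunit, at 132.7 ± 10.5 CPM in normal, 253.5 ± 68.8 in model, 287.6 ± 24.7 in QJSB and 115 ± 15.7 in leucogen (SD, n = 3). Ehmt2 (0.982), a histone methyltransferase, Yif1b (0.981), Prkcsh (0.978) and Eif3l (0.975), a subunit of a translation initiation factor, followed. The most opposite were Rbm25 (-0.981), a splicing factor, Malt1 (-0.979) and Phip (-0.979). For Neat1 the values were lower, from Gm10521 (0.905), Ankrd33b (0.896), Gm37379 (0.896), Gng11 (0.894) and the histone gene H3f3c (0.894) to Pphln1 (-0.940), Naf1 (-0.929) and Enoph1 (-0.928). Between the noncoding genes themselves r was 0.747 for Malat1 and Neat1, -0.917 for Malat1 and Gm26917, -0.555 for Neat1 and Gm26917 and 0.926 for Gm26917 and Gm42418 over the 12 libraries, which share the group differences and, within a library, the total.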

How the data were processed

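RNA of total femoral bone marrow cells from 12 mice was made into strand-specific libraries by the authors, who removed poor and rRNA reads with Seqtk and aligned the rest to GRCm38.p4 (mm10) by Hisat2. The program that counted reads and the annotation version are not given in the sources used here. The deposited table holds read counts per gene and library as whole numbers, and the FPKM that the authors computed from mapped fragments and transcript length. The length behind the FPKM was 9336 bases for Malat1, 24805 for Neat1 and 4198 for Gm26917, longer than the longest transcript, so levels between genes were compared as counts per kb of the longest transcript. Shares are percent of all counts of a library.

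Counts were tested with edgeR 4.0.16 in R 4.3.3 (TMM, filterByExpr, robust quasi-likelihood F-test), each time with only the 6 libraries compared, and a gene was called at a change of over 1.5 times either way and a Benjamini-Hochberg adjusted p under 0.05 over all genes tested. SE is the absolute log2 fold change over the square root of F. The code was tested on simulated data. Alternatives were total counts or DESeq2 size factors, DESeq2 1.42.0 without a count filter (Wald test), no filter or a minimum of 10 counts per library, 1 fit of all 12 libraries, replicate number as a block, limma 3.58.1 on log2(FPKM + 0.1) where the mean FPKM was 0.1 or more, and leaving out Gm26917 with its neighbours, or 1 library. Same-numbered libraries deviated together in QJSB and model (r = 0.453, 0.136 and 0.103) and in QJSB and leucogen (0.174, 0.157 and 0.110), a possible sign of pairing that comes from the values alone. The number of libraries that matched best with their own number was 1 in QJSB and model and 3 in QJSB and leucogen. The values reported are from the fits without the block, and the block is an alternative.

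Sequences and lengths came from GENCODE M21, which held 34267 of the 34745 gene IDs. The members and the gene lists were chosen with earlier results of these data known. Named genes are, per list and comparison, called genes among up to 3 with the highest mean CPM in each direction, gene models within 10 kb of Gm26917 or 100 kb of Malat1 or Neat1, and the 5 most and 3 least correlated genes whose mean normalized count reached 50. All pairs of libraries of a group differed beyond counting noise.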

Additional observations from a re-analysis of the deposited data

How the results depend on the processing

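Of the values of the 3 genes and the counts of calls in the 5 lists, 161 under alternatives other than a library left out moved by less than the spread between replicates or by less than 1.5 times, and 11 did not. With total counts the log2 fold change of Malat1 in leucogen against model was 0.69, and with limma on FPKM also 0.69. Shares of the summed FPKM were lower than shares of counts: 0.731% for Malat1 in normal, 0.390% in model, 0.314% in QJSB and 0.600% in leucogen, 0.0157%, 0.00672%, 0.00727% and 0.00991% for Neat1, and 3.65% for Gm26917 in QJSB. FPKM divides by a transcript length, which is long for Malat1 and Neat1. Over the fits that left out 1 library, calls in the lists ran from 13 (without leucogen replicate 3) over 17 (without leucogen replicate 1) to 47 (without model replicate 2) in leucogen against model and from 17 (without leucogen replicate 3) to 48 in QJSB against leucogen. They ran from 24 to 41 in model against normal. With the replicate block, the lists had 32 calls in model against normal, 0 in QJSB against model, 25 in leucogen against model and 40 in QJSB against leucogen, against 34, 0, 30 and 37 without the block. Total counts shifted the median of all genes to 0.14 in model against normal and to -0.22 in leucogen against model. Of the values of single genes and single lists under these alternatives, 1698 stayed on their side of the threshold, 65 lost a call, 5 gained one and 5 counts moved by more than 1.5 times. No called gene changed direction. The log2 fold change of Gm26917 in QJSB against model, near 0, ran from -0.10 to 0.27 without 1 library.

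Each comparison rests on 3 mice against 3, and the replicate spread of Neat1 in QJSB and leucogen limits its precision. The isoforms of Neat1, and reads shared between Gm26917 and rRNA, were not separated.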
